A study of Mus musculus with 18 samples.

Results

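Toll-like receptors (TLRs) and the proteins that bring lipopolysaccharide (LPS) to them were followed across 6 groups of mouse bone marrow-derived macrophages (BMDMs). The 10 members were Tlr1, Tlr2, Tlr3, Tlr4, Tlr6, Tlr7, Tlr9, Tlr13, Cd14 and Ly96. They were chosen by name, as the rows of the deposited count table whose Ensembl gene ID maps to these symbols, and make up 10 of its 50600 gene IDs. All 10 were among the 15663 genes with enough counts to be tested. Bone marrow of WT or IRF5 KO mice was cultured for 8 days in GM-CSF. The cells were pretreated for 1 h with DMSO or with 3.5 μM defactinib, an inhibitor of the kinases PYK2 and FAK, and then given 100 ng/ml LPS for 2 h. For each genotype, 3 libraries came from unstimulated cells, 3 from cells given DMSO and LPS (LPS DMSO) and 3 from cells given defactinib and LPS (LPS defactinib). The labels give DMSO for the unstimulated libraries, while the column names mark them as untreated. There was no group with defactinib alone, so the inhibitor can be read only in the presence of LPS. The series describes the 3 libraries of a group as biological replicates, and the labels give neither the age nor the sex of the mice.

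TLRs sense conserved parts of microbes and signal through the adaptors MyD88 and TRIF. LPS is passed by Cd14, a membrane-anchored protein, to the complex of Tlr4 with Ly96 (MD-2), the subunit that holds the lipid. Tlr2 pairs with Tlr1 or Tlr6 at the cell surface to bind bacterial lipopeptides. Tlr3, Tlr7, Tlr9 and Tlr13 work in endosomes, where they bind double-stranded RNA, single-stranded RNA, unmethylated CpG DNA and bacterial ribosomal RNA. IRF5 is a transcription factor that is activated downstream of these receptors, and macrophages grown in GM-CSF are known for high levels of it.

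Between 39282181 and 61949143 read pairs were counted per library. Expression is given as CPM, counts scaled to library size with TMM, and as log2 fold changes with their standard error (SE). Genes counted as called had an adjusted p below 0.05 and differed by more than 2-fold. Irf5, the targeted gene, was at 587, 606 and 650.3 CPM in the WT unstimulated libraries and at 335, 397 and 364 CPM in those of IRF5 KO. It was lower in IRF5 KO (log2 fold change of WT against IRF5 KO 0.75 ± 0.16, adjusted p = 0.00492, edgeR), but by less than 2-fold. After LPS with DMSO it was at 451 ± 21.1 CPM in WT and at 404 ± 51.3 CPM in IRF5 KO (mean ± SD, n = 3), which was not called. After LPS with defactinib it was lower in WT, at 276 ± 90.2 CPM, than in IRF5 KO, at 369 ± 20.2 CPM, with -0.42 ± 0.16 on the log2 scale (adjusted p = 0.0545, edgeR), also not called. A count over the whole gene cannot check a deletion of part of it, so the genotypes were used as labelled. All 8 macrophage markers were detected in every group. In WT they summed to 9785 to 10128 CPM unstimulated, 9376 to 9876 CPM with LPS and DMSO and 10736 to 15170.4 CPM with LPS and defactinib. The sums in IRF5 KO were 10297 to 14649.9, 9607 to 12319 and 17949.7 to 18878 CPM in the same order. Most of each sum was Lyz2, at 8257 CPM in WT unstimulated and 15376 CPM in IRF5 KO LPS defactinib, where Mertk went the other way, from 66.4 to 27.6 CPM, as did Fcgr1, from 74.7 to 38.5 CPM. Most of the dendritic cell marker sum was Itgax and H2-Ab1, and 7 or 8 of 10 markers were at 1 CPM or more. In WT it was 5182 to 5331 CPM unstimulated and 5460 to 6448 CPM with LPS and DMSO. With LPS and defactinib it was 4525 to 5353 CPM in WT. In IRF5 KO it was 3687 to 3929 CPM unstimulated and 5145 to 5602 CPM with LPS and defactinib. IRF5 KO LPS DMSO had 6281, 6245 and 4539 CPM, in the order of the replicates. Neutrophil markers summed to 62.9 to 89.5 CPM unstimulated and to 117 to 237 CPM after LPS, over both genotypes. None of 8 lymphocyte markers reached 1 CPM as a group mean. Mast cell and basophil markers, of which 2 or 3 of 7 reached 1 CPM, summed to 10.7 to 11.6 CPM in WT unstimulated and 49.1 to 57.4 CPM in IRF5 KO unstimulated, with Gata2 at 3.27 and 32.3 CPM. In IRF5 KO LPS DMSO they summed to 49.7, 49.4 and 101 CPM, in the order of the replicates. The sums were 45.3 to 58.0 CPM in WT after LPS with DMSO, 9.84 to 34.6 CPM in WT after LPS with defactinib and 50.8 to 55.4 CPM in IRF5 KO after LPS with defactinib. Most of the sum in WT LPS DMSO was Hdc, at 0.554 CPM unstimulated and 35.4 CPM after LPS, where Gata2 was at 3.74 CPM, and Fcer1a was at 0.0485 CPM or less in every library. The part of these shifts in the results was not tested.

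The IRF5 KO LPS DMSO libraries did not resemble each other equally. Replicates 1 and 2 differed by a median of 0.0946 on the log2 scale over all tested genes, but by 0.558 and 0.554 from replicate 3. The 15 pairs within the other 5 groups differed by 0.0826 to 0.397. Replicate 3 was nearest to the mean of IRF5 KO unstimulated, at 0.234. Replicates 1 and 2 were nearest to the mean of IRF5 KO LPS defactinib, at 0.233 and 0.236. Pairs of libraries within IRF5 KO unstimulated differed by at most 0.160, and pairs within IRF5 KO LPS defactinib by at most 0.147. The paper reports that defactinib changed little in LPS-stimulated IRF5 KO cells. Whether the labels of IRF5 KO LPS DMSO are right was not tested, and they were used as deposited. Counts that rest on this group are given with and without replicate 3. The highest pair distance of the other groups lay in WT LPS defactinib, between replicates 2 and 3.

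Tlr1 and Tlr6 lie beside each other on the minus strand of chromosome 5 (mm10), Tlr1 at chr5:64924679-64933563 and Tlr6 at chr5:64952031-64960097. Their transcripts share identical runs of up to 229 bases, and 4.83% of the 150-base windows of Tlr1 also occur in Tlr6. Only uniquely mapped pairs were counted, so pairs that lie wholly within such stretches are counted for neither gene. Tlr2 is at chr3:83836272-83841767, Tlr3 at chr8:45395665-45411080 and Ly96 at chr1:16688051-16709611. Tlr4 spans chr4:66827584-66930284 and Tlr9 chr9:106222598-106226883. Both Tlr7, at chrX:167304929-167330558, and Tlr13, at chrX:106143204-106160493, are X-linked. Exons of no other GENCODE gene lay over those of a member on the same strand. Tlr3 alone had an exon on the opposite strand, of Gm45542, which stranded counting keeps apart.

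Per kilobase of exon, Cd14 was the most abundant member in 5 of the 6 groups and Tlr2 in WT unstimulated. In WT unstimulated BMDMs, Tlr2 was at 56.4 ± 2.03 CPM per kb, Cd14 at 39.7 ± 1.18, Tlr13 at 22.3 ± 0.432, Tlr4 at 17.4 ± 0.815 and Tlr7 at 8.06 ± 0.584. Ly96 followed at 4.30 ± 0.579. Tlr6 and Tlr9, at 2.96 and 2.94 CPM per kb, overlapped, as did Tlr1 and Tlr3, at 0.746 and 0.739. The libraries of all other neighbours in this order did not overlap.

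The order was different in IRF5 KO unstimulated BMDMs. Cd14 led at 67.3 ± 8.70 CPM per kb, with Tlr13 at 47.4 ± 4.62, Tlr2 at 30.0 ± 3.07, Tlr4 at 20.3 ± 2.06 and Tlr7 at 11.7 ± 1.97. Tlr1, last but one in WT, was in the middle of the order at 5.42 ± 0.554, above Ly96 at 4.46, Tlr6 at 3.98 and Tlr9 at 3.22, and Tlr3 was last at 0.528. Ly96 overlapped with Tlr6, and Tlr6 with Tlr9. After LPS with DMSO, Cd14 was first in both genotypes, at 247 ± 45.9 CPM per kb in WT and 151 ± 50.5 in IRF5 KO. In the latter group all other neighbours overlapped. In WT LPS DMSO, Tlr4 overlapped with Tlr9, and Tlr9 with Tlr6.

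**Figure D1:**
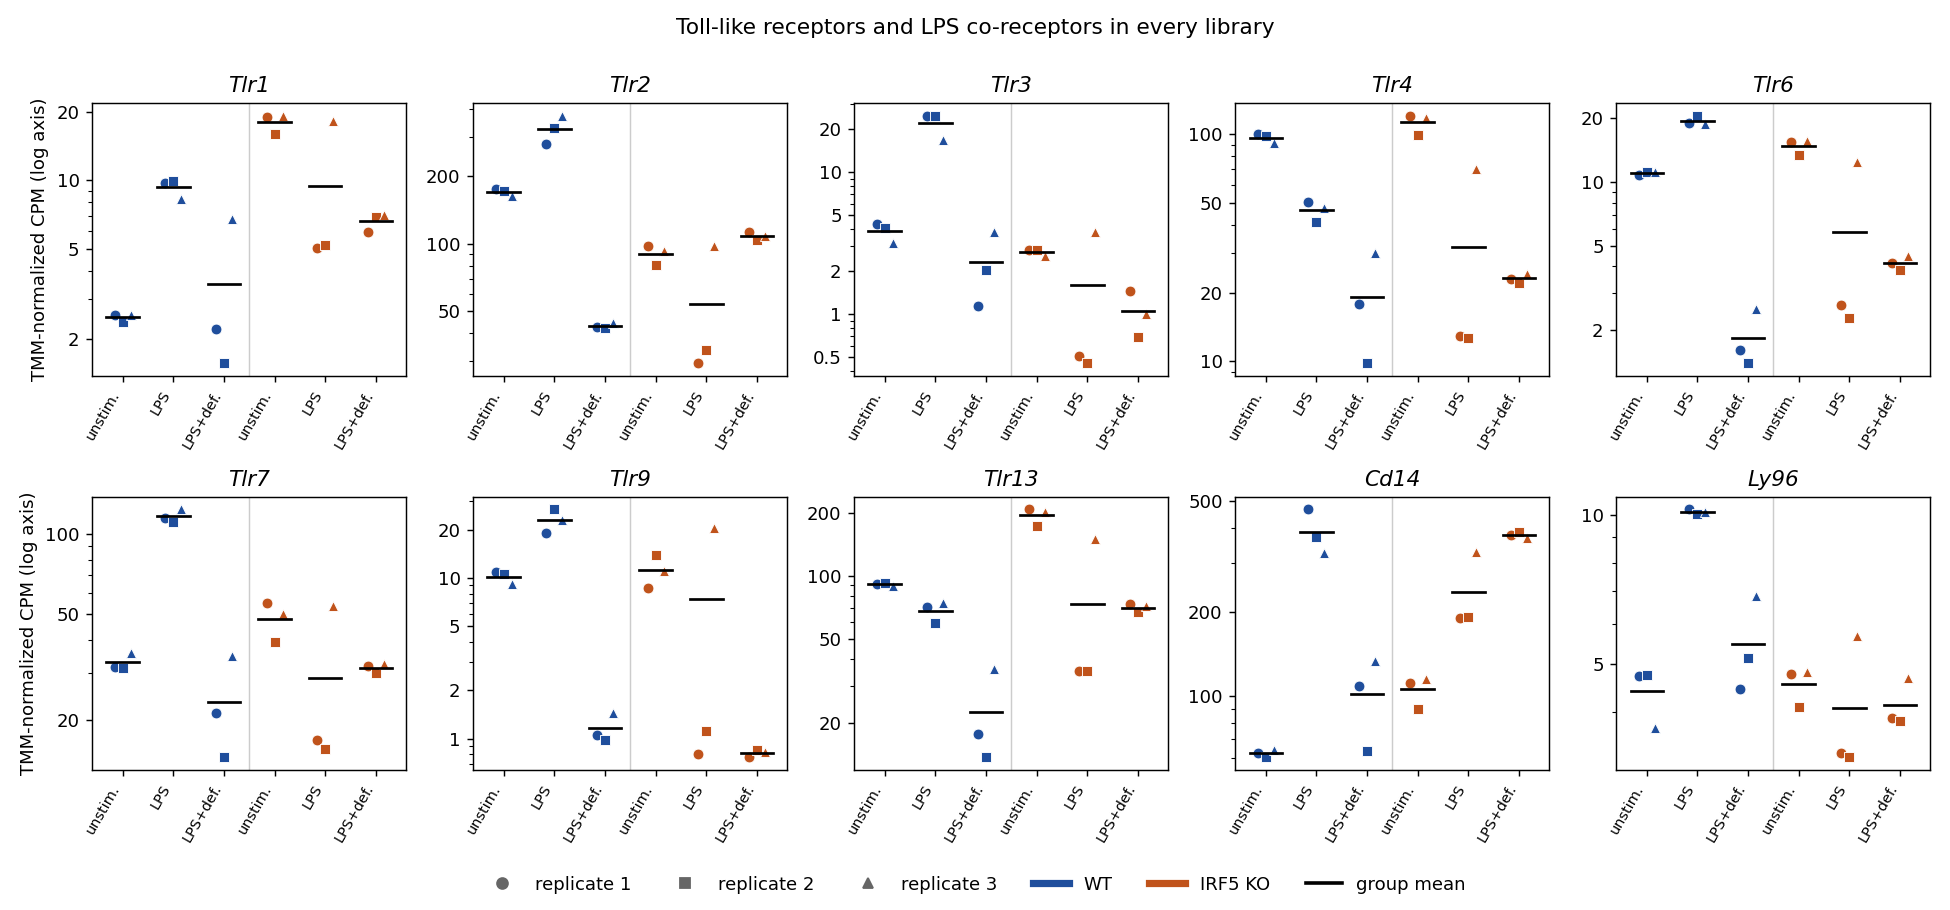
TMM-normalized CPM (log axis) of the 10 members in each of the 18 libraries, by genotype (colour) and replicate (shape), with a black bar at each group mean. Replicate 3 of IRF5 KO LPS DMSO (triangle) lies above the other replicates in every panel, with Tlr9 at 20.4 CPM against 0.7997 and 1.11.

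In WT BMDMs, LPS raised both co-receptors of Tlr4, while Tlr4 itself was not called with all libraries. Cd14 went from 62.6, 60.4 and 64.1 CPM in the unstimulated libraries to 467, 372 and 326 CPM after LPS with DMSO. It rose by 2.64 ± 0.25 on the log2 scale (± SE; adjusted p = 8.30e-07, edgeR), the largest rise among the members. Ly96 went from 4.72, 4.75 and 3.71 to 10.2, 10.1 and 10.1 CPM, a rise of 1.21 ± 0.21 on the log2 scale (adjusted p = 0.000274, edgeR). With library size alone Ly96 was at 0.83, short of the fold change of 2, and its adjusted p was 0.357 with that threshold inside the test. The WT LPS libraries of both genes lay above all unstimulated ones, as in 31.8% of all tested genes. Tlr4 was at 99.9, 98.1 and 91.3 CPM before LPS and at 50.2, 41.0 and 47.5 CPM after it. All LPS libraries were lower, but the log2 fold change of -1.06 ± 0.51 was not called (adjusted p = 0.111, edgeR). With IRF5 KO LPS DMSO replicate 3 left out of the shared fit, Tlr4 was called in WT, with a log2 fold change of -1.06 and an adjusted p of 0.00285. It was also called lower with library size alone, at -1.44 (adjusted p = 0.0339, edgeR), with IRF5 KO LPS DMSO replicates 1 and 2 left out together (adjusted p = 0.00401) and in a fit of only these groups (adjusted p = 3.52e-07). In bulk RNA, fewer cells of a type and less RNA per cell cannot be told apart.

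Among the lipopeptide receptors, Tlr1 rose in WT with LPS. Its level was 2.55, 2.38 and 2.56 CPM in unstimulated libraries and 9.76, 9.90 and 8.31 CPM after LPS, and it rose by 1.90 ± 0.50 (adjusted p = 0.00583, edgeR). Tlr2, the shared subunit, was at 175, 172 and 163 CPM before and 279, 326 and 373 CPM after LPS. Its log2 fold change of 0.94 ± 0.31 passed the false discovery rate (adjusted p = 0.0234, edgeR) but not the fold change of 2. Without WT LPS DMSO replicate 1 it was called, at 1.04. Tlr6 went from 10.8, 11.2 and 11.1 to 19.04, 20.6 and 18.9 CPM, and its log2 fold change of 0.82 ± 0.44 was not called (adjusted p = 0.149, edgeR). All of its LPS libraries were higher, as in 31.8% of all tested genes. Over 29 alternatives its log2 fold change ran from 0.44 to 0.86, short of the fold change of 2, and its lowest adjusted p was below 0.05.

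Of the endosomal receptors, Tlr3 and Tlr7 were called higher with LPS in WT. Tlr3 was at 4.31, 4.04 and 3.20 CPM in unstimulated BMDMs and at 24.9, 25.1 and 16.7 CPM after LPS, a rise of 2.53 ± 0.60 on the log2 scale (adjusted p = 0.00308, edgeR). Tlr7 went from 31.6, 31.4 and 35.7 to 115, 111 and 124 CPM, a rise of 1.83 ± 0.39 (adjusted p = 0.00135, edgeR). Tlr9 was at 10.9, 10.5 and 9.24 CPM before and at 19.1, 26.8 and 23.1 CPM after LPS, with a log2 fold change of 1.17 ± 0.76 that was not called (adjusted p = 0.242, edgeR). Left without replicate 3 of IRF5 KO LPS DMSO, the fit called it, with an adjusted p of 1.49e-05. A fit of only these groups called Tlr9 too (adjusted p = 9.66e-06). Tlr13 had 91.7, 92.3 and 89.0 CPM before and 70.7, 59.9 and 74.3 CPM after LPS, and its log2 fold change of -0.41 ± 0.44 was not called. All of its LPS libraries were lower, as in 32.9% of all tested genes. Over 29 alternatives its log2 fold change ran from -0.79 to -0.34, short of the fold change of 2, and its lowest adjusted p was below 0.05. Of the 10 members, 5 rose and 0 fell, where 11.6% of all tested genes rose and 9.71% fell. The members' median log2 fold change was 1.19, against -0.00454 over all tested genes.

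In IRF5 KO BMDMs, Cd14 was the only member called higher after LPS, while Tlr4, Tlr6 and Tlr13 were called lower. Cd14 went from 112, 90.1 and 116 CPM to 191, 192 and 329 CPM, a rise of 1.17 ± 0.24 on the log2 scale (adjusted p = 0.00337, edgeR). Tlr4 was at 121, 99.8 and 118 CPM before LPS and at 12.9, 12.6 and 70.2 CPM after it. Tlr4 fell, its log2 fold change being -1.82 ± 0.52 (adjusted p = 0.016, edgeR). Tlr13, a receptor for bacterial ribosomal RNA, went from 207, 172 and 202 to 35.4, 35.2 and 150.1 CPM, a log2 fold change of -1.40 ± 0.45 (adjusted p = 0.0263, edgeR). Tlr6 went from 15.5, 13.4 and 15.6 to 2.64, 2.28 and 12.4 CPM, a log2 fold change of -1.35 ± 0.44 (adjusted p = 0.0283, edgeR). In these 3 genes, replicates 1 and 2 lay far below the unstimulated libraries and replicate 3 between them.

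The other members of IRF5 KO were not called by edgeR when all 3 LPS libraries were used. In limma-voom, which called 9.58% of all tested genes lower, Tlr1 and Tlr9 were also called lower, at -1.15 (adjusted p = 0.0224) and -1.89 (adjusted p = 0.0408), and edgeR with the replicate number as a block called Tlr1 (adjusted p = 0.0461). Ly96 was at 4.75, 4.08 and 4.82 CPM before and 3.30, 3.23 and 5.67 CPM after LPS, with a log2 fold change of -0.16 ± 0.21 and a 95% interval of -0.61 to 0.29. Tlr2 was at 98.2, 80.3 and 93.3 CPM before LPS and at 29.4, 33.7 and 98.1 CPM after it, where replicate 3 was level with the highest unstimulated library and replicates 1 and 2 were far below. Tlr1 went from 19.04, 15.99 and 19.3 to 5.02, 5.20 and 18.2 CPM, Tlr3 from 2.84, 2.83 and 2.58 to 0.509, 0.451 and 3.82 CPM and Tlr7 from 54.8, 39.1 and 49.99 to 16.7, 15.5 and 53.6 CPM. Tlr9 had 8.65, 13.9 and 11.1 CPM before and 0.7997, 1.11 and 20.4 CPM after LPS. In Tlr9 replicate 3 lay above all unstimulated libraries and the other replicates far below them. Over the 10 members, 1 rose and 3 fell, where 7.07% of all tested genes rose and 6.28% fell. Their median log2 fold change was -0.75, against 0.01 over all tested genes.

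These counts depended on which IRF5 KO LPS DMSO libraries were used. Without replicate 3, 8 of the 10 members, all of the TLRs, were called lower after LPS in IRF5 KO and 0 higher, against 16.6% and 9.64% of all tested genes. Tlr9 then was at -3.55 on the log2 scale (adjusted p = 2.41e-09, edgeR), Tlr4 at -3.15 (adjusted p = 1.53e-06) and Tlr2 at -1.52 (adjusted p = 8.68e-09). Cd14 was at 0.85 (adjusted p = 0.00301) and lost its call to the fold change of 2, as it did with library size alone at 0.96, and in a fit of only these groups its adjusted p was 0.075. With replicate 3 as the lone library, whose spread is assumed to be that of the other groups, Cd14 alone was called, at 1.65, where 2.66% of all tested genes were called higher and 0.0419% lower. Tlr4, Tlr6 and Tlr13 also lost their calls without replicate 1 or without replicate 2, which left Cd14. The call of Tlr6 was lost without any one of the unstimulated libraries too, and that of Tlr13 without unstimulated replicate 1 or 3.

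**Figure D2:**
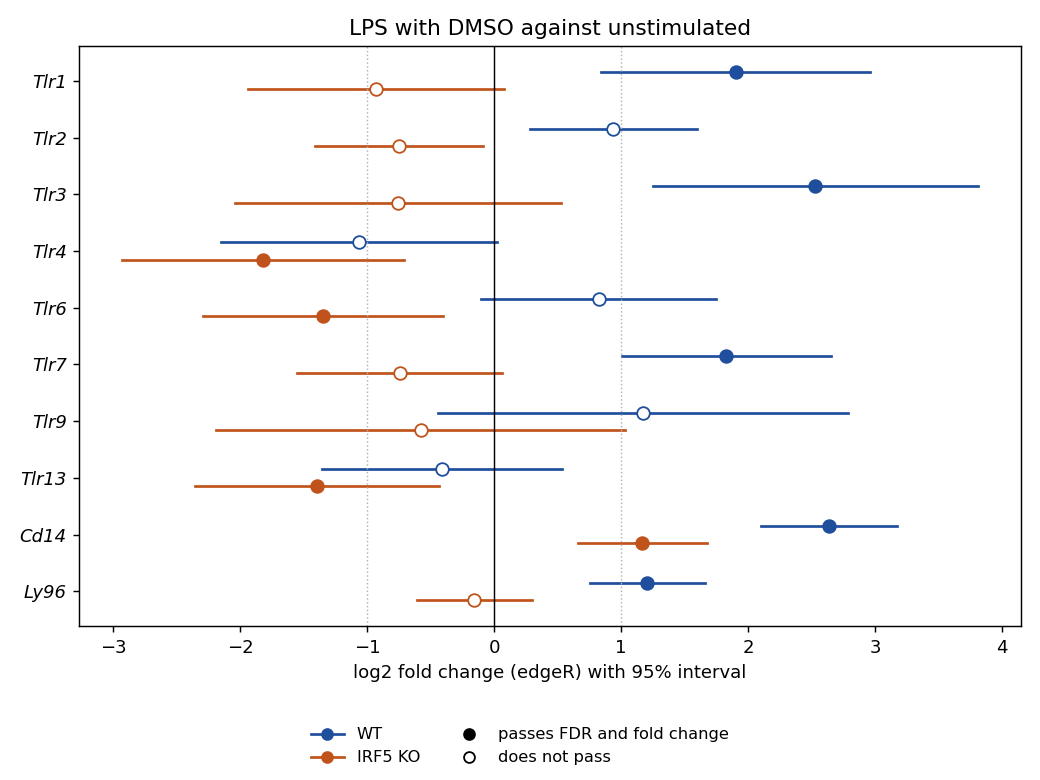
Log2 fold change of each member after LPS with DMSO against unstimulated (edgeR; lines are 95% intervals, dotted lines a fold change of 2), in WT (blue) and IRF5 KO (orange), with filled points for called members. Cd14 lies highest in both genotypes, at 2.64 in WT and 1.17 in IRF5 KO.

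The response to LPS differed by genotype in 7 members by the interaction term, the log2 fold change in WT minus that in IRF5 KO. Tlr3 differed by 3.28 ± 0.84 (adjusted p = 0.0167, edgeR), Tlr1 by 2.83 ± 0.68 (adjusted p = 0.012) and Tlr7 by 2.57 ± 0.54 (adjusted p = 0.00546). Tlr6 differed by 2.17 ± 0.62 (adjusted p = 0.0269) and Tlr2 by 1.69 ± 0.44 (adjusted p = 0.0173). Both co-receptors were among them, Cd14 at 1.47 ± 0.34 (adjusted p = 0.00846) and Ly96 at 1.36 ± 0.30 (adjusted p = 0.00677). Tlr4, Tlr9 and Tlr13 were not called by edgeR, with intervals of -0.77 to 2.28, -0.53 to 4.02 and -0.35 to 2.32. In limma-voom the term of Tlr9 was called, at 3.04 (adjusted p = 0.0198). All 7 terms were positive, where 6.33% of all tested genes were called with a positive term and 3.49% with a negative one. The count was 10 without IRF5 KO LPS DMSO replicate 3, with 16.5% of all genes positive. It was 3, namely Tlr3, Tlr6 and Tlr7, with replicate 3 as the lone library of its group, against 2.55%. Without replicate 3 the terms ran from 1.68 for Ly96 to 5.04 for Tlr3. The term of Tlr6 lost its call in 11 of 29 alternatives, 7 of which left out a single library.

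The members with the lowest log2 fold changes under defactinib in WT after LPS were Tlr9, Tlr6, Tlr3 and Tlr2, and the stretches before their starts are shown for that reason. They were read from the 250 bases before each start in RefSeq (GRCm38.p6), which held promoters for 6 of the 10 members, namely Tlr1, Tlr2, Tlr3, Tlr6, Tlr9 and Tlr13. From the first base within a GENCODE exon on the same strand onwards, bases are not printed, and none of the window of Tlr3 is. The motif search used all 250 bases of each window, exons included. Both strands were searched for 4 motifs. NF-kB was GGG and TTCC with any 3 bases between them, the interferon-stimulated response element (ISRE) was GAAA and GAAA with any 2 bases between them, PU.1 was GAGGAAGT and AP-1 was TGANTCA. Of 32851 promoters of the same length, 4.65% held the NF-kB motif, 2.98% the ISRE, 2.44% that of PU.1 and 6.75% that of AP-1. Tlr2 and the upstream start of Tlr6 had an NF-kB match each, Tlr3 had one in the part of its window that is not printed, the downstream start of Tlr6 had 2 overlapping ISRE matches on the opposite strand, and Tlr9 had an AP-1 match. Tlr1 had a PU.1 match and Tlr13 had no match. Capitals mark the matches, which describe letters and not sites.
Tlr9, chr9:106222348-106222597, plus strand: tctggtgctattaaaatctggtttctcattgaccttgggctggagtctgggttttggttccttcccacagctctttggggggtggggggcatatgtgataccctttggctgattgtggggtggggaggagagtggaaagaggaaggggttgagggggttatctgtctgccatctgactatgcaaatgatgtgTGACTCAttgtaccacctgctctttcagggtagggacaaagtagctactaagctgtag
Tlr6, downstream start, chr5:64959167-64959416, minus strand: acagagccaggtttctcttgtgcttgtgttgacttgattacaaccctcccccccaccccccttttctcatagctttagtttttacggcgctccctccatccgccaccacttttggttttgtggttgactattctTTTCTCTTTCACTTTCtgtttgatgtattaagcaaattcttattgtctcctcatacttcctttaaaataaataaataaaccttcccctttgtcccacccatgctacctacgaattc
Tlr6, upstream start, chr5:64960098-64960298, minus strand: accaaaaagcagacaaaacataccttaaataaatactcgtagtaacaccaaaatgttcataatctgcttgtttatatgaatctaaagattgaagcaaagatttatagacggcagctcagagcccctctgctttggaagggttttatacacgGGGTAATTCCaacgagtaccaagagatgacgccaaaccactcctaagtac
Tlr2, chr3:83841768-83841858, minus strand: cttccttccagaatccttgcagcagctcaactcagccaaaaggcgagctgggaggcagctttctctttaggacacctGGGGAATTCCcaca

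In LPS-stimulated WT BMDMs, 9 of the 10 members were called lower with defactinib, and Ly96 was lower by less than 2-fold. This comparison shares the WT LPS DMSO libraries with that of LPS in WT. Tlr9 was at 19.1, 26.8 and 23.1 CPM with DMSO and at 1.05, 0.986 and 1.44 CPM with defactinib, with -4.31 ± 0.89 on the log2 scale (adjusted p = 0.000816, edgeR). Tlr6 was at 19.04, 20.6 and 18.9 and 1.605, 1.40 and 2.52 CPM, with -3.41 ± 0.49 (adjusted p = 3.80e-05). These are a receptor of CpG DNA and a partner of Tlr2, and their levels with defactinib were all below 3 CPM. Tlr3 was at 24.9, 25.1 and 16.7 and 1.14, 2.05 and 3.80 CPM, with -3.26 ± 0.63 (adjusted p = 0.000475). Tlr2 was at 279, 326 and 373 and 42.5, 42.2 and 44.2 CPM, with -2.92 ± 0.33 (adjusted p = 4.49e-06), and its defactinib libraries lay within a narrow range. Where 18.6% of all tested genes fell and 10.4% rose, the members' median log2 fold change was -2.12, against 0.09 over all tested genes.

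Tlr7 was at 115, 111 and 124 CPM with DMSO and at 21.1, 14.4 and 34.6 CPM with defactinib in WT after LPS, on the log2 scale -2.32 ± 0.39 (adjusted p = 0.00018, edgeR). Tlr13 was at 70.7, 59.9 and 74.3 and 17.6, 13.7 and 36.0 CPM, with -1.61 ± 0.46 (adjusted p = 0.00766), and Tlr1 at 9.76, 9.90 and 8.31 and 2.21, 1.56 and 6.73 CPM, with -1.42 ± 0.49 (adjusted p = 0.0225). Replicate 3 of WT LPS defactinib was the highest of its group in all of the members, and in Tlr1 it was not far below the DMSO libraries. Without it, Tlr1 had a log2 fold change of -2.29 and Tlr13 of -2.11. Without WT LPS defactinib replicate 1, or replicate 2, the call of Tlr1 was lost, at -1.14 and -1.05, as it was without WT LPS DMSO replicate 1 or 2.

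Within the LPS receptor complex, its genes moved unequally with defactinib in WT. Cd14 was at 467, 372 and 326 CPM with DMSO and at 109, 63.9 and 134 CPM with defactinib, with -1.93 ± 0.24 on the log2 scale (adjusted p = 1.16e-05, edgeR). Tlr4 was at 50.2, 41.0 and 47.5 and 17.9, 9.79 and 30.1 CPM, with -1.26 ± 0.52 (adjusted p = 0.0479). Its call was lost in 17 of the 29 alternatives, where its adjusted p was at most 0.487. Ly96 was at 10.2, 10.1 and 10.1 and 4.44, 5.12 and 6.83 CPM, with -0.89 ± 0.21, which passed the false discovery rate (adjusted p = 0.00219) but not the fold change of 2. Without WT LPS defactinib replicate 3, Ly96 was called as well, at -1.06, which made 10 of 10 members lower, against 19.4% of all tested genes. The groups did not overlap in any of the 10 members, where 31.5% of all tested genes were lower and 31% higher without overlap.

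**Figure D3:**
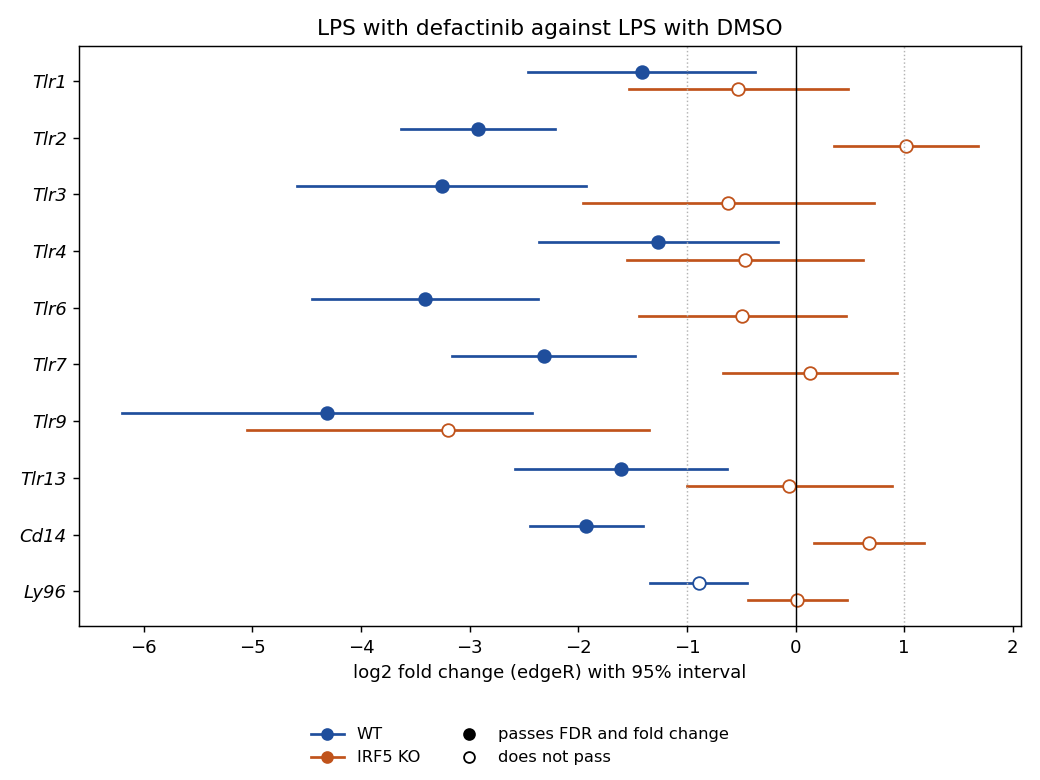
Log2 fold change of each member with LPS and defactinib against LPS and DMSO (edgeR; lines are 95% intervals, dotted lines a fold change of 2), in WT (blue) and IRF5 KO (orange), with filled points for called members. All 10 WT estimates lie below 0, from -4.31 for Tlr9 to -0.89 for Ly96, and no IRF5 KO estimate is called.

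In IRF5 KO after LPS, 0 of the 10 members were called with defactinib, where 0.16% of all tested genes rose and 0.76% fell. The unadjusted p of Tlr2, Tlr9 and Cd14 was 0.00527, 0.00222 and 0.0121 in edgeR, and no other member was below 0.05. DESeq2 called Tlr2 higher and Tlr9 lower, where it called 0.281% of all tested genes higher and 3.05% lower. In limma-voom Tlr2 was called higher, as were 0.262% of all tested genes. Tlr2 was at 29.4, 33.7 and 98.1 CPM with DMSO and at 113, 104 and 109 CPM with defactinib, so that every defactinib library was higher, as in 14.1% of all tested genes, with 1.01 ± 0.31 on the log2 scale (adjusted p = 0.0772). Cd14 was at 191, 192 and 329 and 379, 388 and 368 CPM, also without overlap, with 0.67 ± 0.24 (adjusted p = 0.108). Tlr9 was at 0.7997, 1.11 and 20.4 and 0.767, 0.851 and 0.823 CPM, with -3.20 ± 0.87 (adjusted p = 0.0544), where DMSO replicate 3 lay apart from all other libraries. Levels with defactinib in the rest were 23.1, 22.1 and 24.3 CPM for Tlr4, 73.1, 67.1 and 71.7 for Tlr13, 31.9, 29.9 and 32.4 for Tlr7 and 3.89, 3.83 and 4.67 for Ly96. Tlr1 had 5.92, 6.88 and 7.04 CPM, Tlr6 4.15, 3.83 and 4.46 and Tlr3 1.45, 0.694 and 1.01.

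The calls for defactinib in IRF5 KO depended on the DMSO libraries used, and so did the sign of 7 of the 10 members. Without DMSO replicate 3, Tlr2 and Tlr13 were called higher with defactinib, at log2 fold changes of 1.78 (adjusted p = 4.68e-07, edgeR) and 1.00 (adjusted p = 0.0414), against 0.611% of all tested genes. With replicate 3 as the lone DMSO library, 6 members were called lower, against 14.6% of all tested genes. They were Tlr1, Tlr3, Tlr4, Tlr6, Tlr9 and Tlr13, with log2 fold changes from -4.66 for Tlr9 to -1.10 for Tlr13. Without replicate 1, or without replicate 2, Tlr9 was called lower, against 5.16% and 5.28% of all tested genes, and no other member was called. From values below 0 with all libraries, Tlr1 went to 0.37, Tlr3 to 1.15, Tlr4 to 0.86 and Tlr6 to 0.75 without replicate 3, as Tlr13 did, and of these 5 only Tlr13 was called. Tlr7, at 0.13 with all libraries, was at -0.15 and -0.18 without replicate 1 and without replicate 2, and Ly96, at 0.02, was at -0.13 and -0.14. Tlr2, Tlr9 and Cd14 kept their sign in each of these fits.

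**Figure D4:**
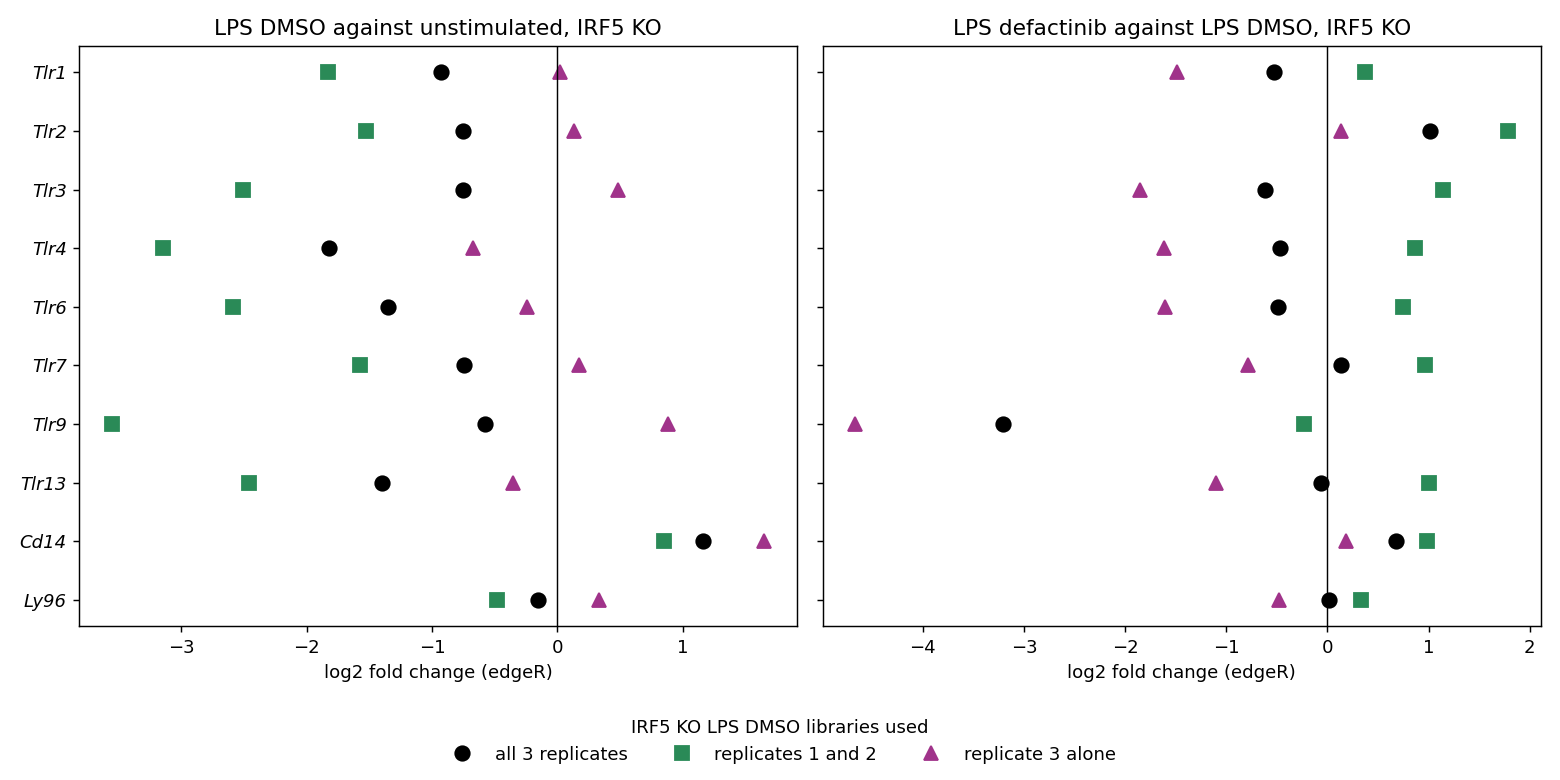
Log2 fold changes (edgeR) of the members in IRF5 KO for LPS DMSO against unstimulated (left) and LPS defactinib against LPS DMSO (right), with all 3 LPS DMSO libraries (circles), replicates 1 and 2 (squares) or replicate 3 alone (triangles). In the left panel Tlr9 goes from -3.55 with replicates 1 and 2 to 0.88 with replicate 3 alone.

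The effect of defactinib after LPS differed by genotype in 5 members. The interaction term, WT minus IRF5 KO, was -3.94 ± 0.45 for Tlr2 (adjusted p = 1.07e-05, edgeR), -2.92 ± 0.65 for Tlr6 (adjusted p = 0.00256) and -2.64 ± 0.87 for Tlr3 (adjusted p = 0.0266). For Cd14 it was -2.60 ± 0.34 (adjusted p = 3.12e-05) and for Tlr7 -2.45 ± 0.54 (adjusted p = 0.00252). Ly96 passed the false discovery rate at -0.91 ± 0.30 (adjusted p = 0.0265) but not the fold change of 2. Tlr4, at -0.80 ± 0.72, and Tlr9, at -1.11 ± 1.17, were not called, nor were Tlr1 and Tlr13 in edgeR. With all libraries, the term of Tlr13 was called at -1.56 in DESeq2 (adjusted p = 0.0266), -2.01 in limma-voom (adjusted p = 0.0177) and -1.87 in edgeR with the replicate number as a block (adjusted p = 0.0161). All 5 called terms were negative, where 12.3% of all tested genes had a negative and 10.5% a positive call. Without IRF5 KO LPS DMSO replicate 3 the count was 10, against 18.8% of all tested genes, and with replicate 3 as the lone library it was 4, against 9.22%. Without WT LPS defactinib replicate 3 it was 8, against 13.3%. Tlr2, Tlr6, Tlr7 and Cd14 were called in each of these fits, while the term of Tlr3 was lost in 11 of 29 alternatives. Without replicate 3 of IRF5 KO LPS DMSO the terms ran from -4.71 for Tlr2 to -1.23 for Ly96.

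Set against the unstimulated libraries, LPS with defactinib left 5 members lower and 0 higher in WT, where 15.8% of all tested genes fell and 9.1% rose. Tlr9 was at -3.14 ± 0.85 on the log2 scale (adjusted p = 0.00674, edgeR), Tlr6 at -2.59 ± 0.48 (adjusted p = 0.000486) and Tlr4 at -2.33 ± 0.53 (adjusted p = 0.0023). Tlr13 was at -2.02 ± 0.46 (adjusted p = 0.00229) and Tlr2 at -1.99 ± 0.32 (adjusted p = 0.000176). Cd14, at 0.71 ± 0.24, passed the false discovery rate only (adjusted p = 0.0205), and its replicate 2, at 63.9 CPM, was within the unstimulated range. Ly96 was at 0.31 ± 0.21, Tlr1 at 0.48 ± 0.49, Tlr3 at -0.73 ± 0.59 and Tlr7 at -0.49 ± 0.38, and none of these was called. The members' median was -1.36, against 0.04 over all tested genes.

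In IRF5 KO, the same contrast compares groups that do not include the LPS DMSO libraries, which are in the shared fit. Cd14 rose by 1.84 ± 0.24 (adjusted p = 6.20e-05, edgeR) and 5 members fell, where 7.85% of all tested genes rose and 16.2% fell. Tlr9 was at -3.78 ± 0.88 on the log2 scale (adjusted p = 0.00248), Tlr4 at -2.28 ± 0.53 (adjusted p = 0.00241) and Tlr6 at -1.84 ± 0.45 (adjusted p = 0.00343). Tlr13 was at -1.46 ± 0.45 (adjusted p = 0.0138) and Tlr1 at -1.46 ± 0.48 (adjusted p = 0.0189). The call of Tlr1 was lost without IRF5 KO LPS defactinib replicate 1, and Tlr3 was called lower without any one of the IRF5 KO LPS DMSO libraries. Tlr2, at 0.26 ± 0.31, Ly96, at -0.14 ± 0.21, Tlr7, at -0.61 ± 0.38, and Tlr3, at -1.37 ± 0.62, were not called by edgeR. Tlr3 was called lower by DESeq2 (adjusted p = 0.0371), by limma-voom (adjusted p = 0.0477), with library size alone (adjusted p = 0.0347) and in a fit of only these groups (adjusted p = 0.000221). Tlr4, Tlr6, Tlr9 and Tlr13 thus fell in both genotypes, Tlr2 in WT and Tlr1 in IRF5 KO. The difference between the genotypes in this contrast was not tested.

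Between unstimulated WT and IRF5 KO BMDMs, Tlr1 was the only member called. It was at 2.55, 2.38 and 2.56 CPM in WT and at 19.04, 15.99 and 19.3 CPM in IRF5 KO, with -2.86 ± 0.51 on the log2 scale for WT against IRF5 KO (adjusted p = 0.00114, edgeR). Tlr6, its neighbour in the genome, was at 10.8, 11.2 and 11.1 and 15.5, 13.4 and 15.6 CPM, with -0.43 ± 0.43 (adjusted p = 0.625). Cd14 was lower in WT at -0.76 ± 0.24, which passed the false discovery rate (adjusted p = 0.0409) but not the fold change of 2. Tlr13 was at 91.7, 92.3 and 89.0 CPM in WT and at 207, 172 and 202 CPM in IRF5 KO. Its groups did not overlap, as in 26.5% of all tested genes lower in WT, but its log2 fold change of -1.09 ± 0.45 was not called (adjusted p = 0.127). It was called without IRF5 KO LPS DMSO replicate 3 (adjusted p = 0.00372) and in a fit of these 2 groups alone. Tlr2 had 0.91 ± 0.31 (adjusted p = 0.0619), and Tlr4, Tlr9 and Ly96 overlapped between the genotypes. Of all tested genes, 3.8% were higher in WT and 3.51% lower.

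After LPS with DMSO, 5 members were higher in WT than in IRF5 KO and 0 lower, where 14% of all tested genes were higher and 11.8% lower. Tlr3 was at 3.77 ± 0.64 on the log2 scale (adjusted p = 0.00023, edgeR), Tlr2 at 2.60 ± 0.33 (adjusted p = 1.63e-05) and Tlr7 at 2.03 ± 0.39 (adjusted p = 0.000623). Tlr6 was at 1.74 ± 0.45 (adjusted p = 0.00472) and Ly96 at 1.31 ± 0.21 (adjusted p = 0.000142). The WT and IRF5 KO libraries did not overlap in these called members, IRF5 KO replicate 3 included, where 27.3% of all tested genes were higher in WT without overlap. Cd14, at 0.71 ± 0.24, passed the false discovery rate only (adjusted p = 0.0205), and Tlr1, Tlr4, Tlr9 and Tlr13 were not called by edgeR. With all libraries, limma-voom called Tlr9 higher in WT, at 2.94 (adjusted p = 0.00194), and so did edgeR with the replicate number as a block, at 2.09 (adjusted p = 0.043). Without IRF5 KO replicate 3 the count was 8, with Tlr4, Tlr9 and Cd14 added and 20.7% of all genes higher. With replicate 3 as the lone library, Tlr2, Tlr3 and Tlr7 were higher and Tlr13 was lower in WT, against 7.59% and 8.36% of all tested genes.

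After LPS with defactinib, Cd14, Tlr13 and Tlr2 were lower in WT than in IRF5 KO and 0 members were higher. Cd14 was at 109, 63.9 and 134 CPM in WT and at 379, 388 and 368 CPM in IRF5 KO, with -1.89 ± 0.24 on the log2 scale (adjusted p = 2.21e-05, edgeR). Tlr2 was at 42.5, 42.2 and 44.2 and 113, 104 and 109 CPM, with -1.34 ± 0.31 (adjusted p = 0.00367), and Tlr13 was at -1.65 ± 0.46 (adjusted p = 0.0106). Of all tested genes, 8.87% were lower in WT and 8.45% higher. Tlr2 was thus higher in WT with DMSO and lower in WT with defactinib. Without IRF5 KO LPS DMSO replicate 3, which is in neither group, Tlr3 was called higher and Tlr6 lower in WT. Tlr6 was also called lower in WT without replicate 1 or 2 of that group, in DESeq2 (adjusted p = 0.025), with the replicate number as a block (adjusted p = 0.0367) and in a fit of only the groups compared (adjusted p = 0.00708). Without WT LPS defactinib replicate 3, Tlr1 was called lower in WT, at -1.79 (adjusted p = 0.0067).

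Ratios between partners within a library do not depend on how libraries are scaled. The ratio of Ly96 to Tlr4, per kilobase of exon, was 0.257, 0.264 and 0.221 in WT unstimulated, 1.11, 1.33 and 1.16 in WT LPS DMSO and 1.35, 2.85 and 1.24 in WT LPS defactinib. In IRF5 KO it was 0.214, 0.222 and 0.223 unstimulated, 1.39, 1.39 and 0.440 with LPS and DMSO and 0.914, 0.943 and 1.05 with LPS and defactinib. Every LPS library, of both genotypes and with or without defactinib, thus had a higher ratio than every unstimulated library. The ratio of Cd14 to Tlr4 was 2.21, 2.18 and 2.48 in WT unstimulated, 32.9, 32.1 and 24.3 in WT LPS DMSO and 21.5, 23.05 and 15.8 in WT LPS defactinib. In IRF5 KO it was 3.26, 3.19 and 3.47, 52.3, 53.8 and 16.6 and 57.9, 62.1 and 53.5 in the corresponding groups. The ratios are descriptions, with no test. The Tlr1 to Tlr6 ratio was 0.262, 0.238 and 0.256 in WT unstimulated and 1.37, 1.33 and 1.38 in IRF5 KO unstimulated. It was 0.571, 0.535 and 0.490 in WT LPS DMSO and 1.53, 1.25 and 2.98 in WT LPS defactinib, and after LPS in IRF5 KO it was 2.12, 2.54 and 1.63 with DMSO and 1.59, 2.00 and 1.76 with defactinib.

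**Figure D5:**
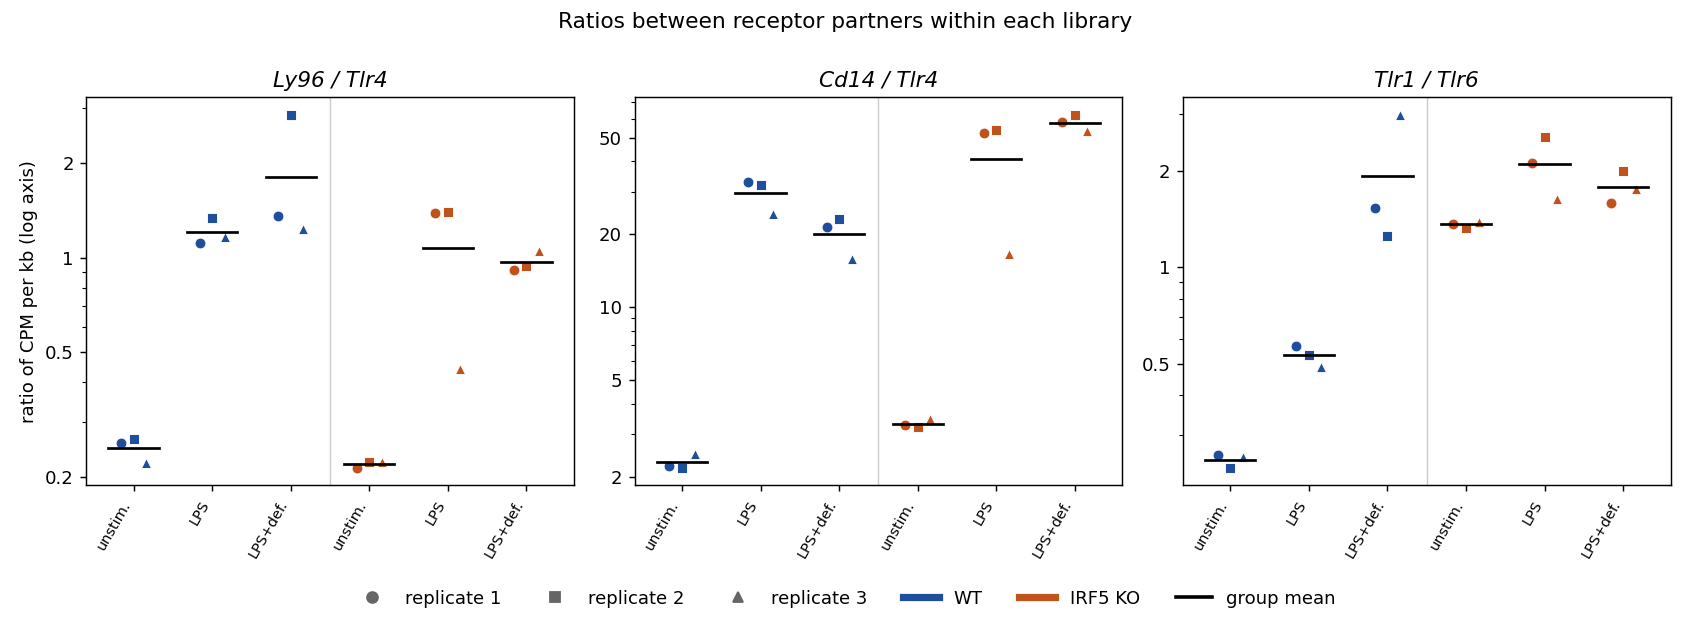
Ratio of CPM per kb of exon (log axis) of Ly96 to Tlr4, Cd14 to Tlr4 and Tlr1 to Tlr6 in each library, by genotype (colour) and replicate (shape), with a black bar at each group mean. For Cd14 to Tlr4 the 6 unstimulated libraries lie between 2.18 and 3.47 and the LPS libraries at 15.8 or more.

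The genes whose pattern over the 18 libraries was most like that of the LPS receptor genes were sought among 8454 tested genes whose log2 CPM averaged 3 or more. Likeness was the root mean square difference of log2 CPM, each gene centred on its own mean. For Tlr4, whose own SD was 1.22, they were Pgpep1 (0.32), Trim8 (0.34) and Wfs1 (0.35). For Cd14, with an SD of 1.07, they were Ehd1 (0.31), Cxcl3 (0.33) and Sh3bp4 (0.38). For Ly96, with an SD of 0.52, they were Apobr (0.13), Snx10 (0.17) and Agfg1 (0.18). The libraries share their groups and their scaling, so these values are descriptions.

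Of 37 other genes of the TLR pathway, 36 were tested by the list used here, and their counts are set beside the shares of all tested genes. With LPS in WT, 4 rose and 3 fell, against 11.6% and 9.71% of all tested genes, with a median log2 fold change of 0.07. With LPS in IRF5 KO, 1 rose and 5 fell, against 7.07% and 6.28%. Defactinib after LPS raised 2 and lowered 8 in WT, against 10.4% and 18.6%, with a median of -0.21 where that of all tested genes was 0.09. In IRF5 KO none of the list was called with defactinib, against 0.16% and 0.76% of all tested genes, and 2 genes had an adjusted p and 11 an unadjusted p below 0.05 in edgeR. LPS with defactinib against unstimulated gave 2 higher and 4 lower in WT, against 9.1% and 15.8%, and 3 and 7 in IRF5 KO, against 7.85% and 16.2%. Between WT and IRF5 KO, 1 was higher and 2 lower in unstimulated BMDMs, against 3.8% and 3.51%. The counts were 4 and 2 after LPS with DMSO, against 14% and 11.8%, and 3 and 6 after LPS with defactinib, against 8.45% and 8.87%. The interaction with LPS was positive in 2 and negative in 1, against 6.33% and 3.49%, and that with defactinib in 3 and 8, against 10.5% and 12.3%. Without IRF5 KO LPS DMSO replicate 3, 8 fell with LPS in IRF5 KO, against 16.6% of all tested genes. In that fit 8 were higher in WT after LPS with DMSO, against 20.7%, and 7 had a positive interaction with LPS, against 16.5%. The interaction with defactinib was positive in 2 and negative in 12, against 12.8% and 18.8%. Without WT LPS defactinib replicate 3, 0 rose and 6 fell in WT with LPS and defactinib against unstimulated, beside 8.36% and 15.8% of all tested genes. Both ways of leaving out a library were chosen after seeing the data.

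TRIF, the adaptor of Tlr3 and Tlr4 encoded by Ticam1, had the largest fall of the list with defactinib in WT. Ticam1 was at 26.7, 28.1 and 30.2 CPM with DMSO and 2.35, 3.80 and 5.34 CPM with defactinib, with -2.89 ± 0.59 on the log2 scale (adjusted p = 0.000796, edgeR), and at -3.08 ± 0.59 against unstimulated. The largest rise was that of Sigirr, an inhibitory receptor of the family, at 2.05 ± 0.24 (adjusted p = 6.12e-06), with 5.19, 4.55 and 6.29 CPM. Sigirr was also lower in WT than in IRF5 KO after LPS with DMSO, at -1.78 ± 0.24, and its interaction terms were -1.01 ± 0.33 with LPS and 2.59 ± 0.34 with defactinib. Without IRF5 KO LPS DMSO replicate 3 these 3 values were -1.83, -1.06 and 2.64, all called. Irak2, a kinase of the MyD88 complex, had the lowest value between genotypes after defactinib, -2.26 ± 0.11 (adjusted p = 1.19e-09), and the lowest interaction with defactinib, -2.32 ± 0.15, which was -2.24 without replicate 3 of IRF5 KO LPS DMSO. Ikbke, a kinase that activates IRF factors, was lower in WT unstimulated, at -1.68 ± 0.34, and had an interaction with LPS of 2.07 ± 0.47 (adjusted p = 0.00865), or 2.56 without that library.

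Tab1, a subunit of the TAK1 kinase complex, had the largest fall with LPS in both genotypes, -1.73 ± 0.56 in WT (adjusted p = 0.0208, edgeR) and -1.70 ± 0.56 in IRF5 KO (adjusted p = 0.0286), and with LPS and defactinib in IRF5 KO, -3.78 ± 0.62. Traf6, a ubiquitin ligase downstream of MyD88, had the largest rise in IRF5 KO, 1.55 ± 0.31 with DMSO and 1.91 ± 0.31 with defactinib, where IRF5 KO LPS DMSO replicate 3, at 58.7 CPM, lay far below the other replicates at 183 and 182. Left without that library, LPS in IRF5 KO gave 1.92 for Traf6 and -3.46 for Tab1. Irf7, an interferon-induced transcription factor, rose by 3.79 ± 1.21 with LPS in WT (adjusted p = 0.0194). Its level in WT LPS defactinib was 16.7, 10.7 and 885 CPM, and its calls against unstimulated, 4.21, and against IRF5 KO LPS defactinib, 4.99, rest on replicate 3. Without that library the values were -0.25 (adjusted p = 0.715) and 0.53 (adjusted p = 0.498). After LPS with DMSO, Irf7 was higher in WT than in IRF5 KO by 3.34 ± 1.18 (adjusted p = 0.0277). Leaving out replicate 3 of IRF5 KO gave 4.60.

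Chaperones that TLRs need were measured alongside. Unc93b1, which carries the endosomal receptors from the endoplasmic reticulum, was called in no comparison and stayed between 359 and 644 CPM in the 18 libraries. Hsp90b1 (gp96), the chaperone that folds most TLRs, was also called in none. Its largest log2 fold change was 0.52 ± 0.09, for LPS with defactinib in IRF5 KO. Cnpy3, a cofactor of gp96, was at 66.7, 66.2 and 71.0 CPM in WT unstimulated. Its level was 41.2, 38.2 and 44.8 CPM in WT LPS DMSO and 77.4, 86.8 and 100.2 CPM in WT LPS defactinib. Between these 2 LPS groups it was higher with defactinib by 1.09 ± 0.12 (adjusted p = 2.79e-06, edgeR), opposite to the receptors. It was lower in WT than in IRF5 KO after LPS with DMSO, at -1.11 ± 0.12, or -1.25 without IRF5 KO replicate 3.

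Among TLRs outside the members, Tlr11 had the largest difference between genotypes in unstimulated BMDMs. It was at 9.55, 10.9 and 10.2 CPM in WT and at 1.36, 1.35 and 1.00 CPM in IRF5 KO, with 3.04 ± 0.42 on the log2 scale (adjusted p = 0.000103, edgeR), opposite in sign to Tlr1. It fell with LPS in WT, by 1.59 on the log2 scale, and in IRF5 KO, by 1.27 (adjusted p = 0.0348, edgeR), or with all but LPS DMSO replicate 3 by 2.60 (adjusted p = 2.38e-06). It was higher also in WT after LPS with DMSO, at 2.72 ± 0.44 (4.05 without IRF5 KO replicate 3), and with defactinib, at 4.66 ± 0.49. These values rest on very low levels in IRF5 KO. Tlr11 was there at 0.242, 0.159 and 1.08 CPM with DMSO and at 0.174, 0.291 and 0.212 CPM with defactinib. In WT it was at 3.32, 2.99 and 3.89 and at 4.65, 5.39 and 7.09 CPM. Tlr8, at 15.95, 14.7 and 11.9 CPM in WT and 39.5, 28.3 and 36.5 CPM in IRF5 KO, was lower in WT with -1.29 ± 0.21 (adjusted p = 0.000445) and fell with LPS in IRF5 KO, at -1.11 ± 0.21. Tlr5 did not exceed 0.292 CPM and Tlr12 0.712 CPM in any library.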

How the data were processed

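RNA-seq counts of 18 BMDM libraries in 6 groups of 3 were used, grouped by the labels, and all entered each fit. Per the file headers and the study's methods, the authors aligned read pairs to mm10 with STAR and counted uniquely mapped pairs over exons of annotated genes with featureCounts 1.6.3, reverse stranded. The deposited values are raw counts per gene, without normalization. Symbols came from GENCODE for 50376 of 50600 IDs. Genes were tested with edgeR 4.0.16 in R 4.3.3 by its quasi-likelihood F test, two-sided, with TMM scaling, filterByExpr, 1 mean per group over all libraries, no replicate block and p-values adjusted by Benjamini-Hochberg within a comparison over all 15663 genes tested. This left 10 of 10 members. SE is the log2 fold change divided by the square root of F. The code was tested on simulated counts.

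All 10 members are named. Of the other TLR pathway genes, those named are the called gene with the largest rise and the largest fall in each comparison, Unc93b1, Cnpy3, Hsp90b1 and the remaining TLRs. The members and lists were chosen with earlier results of these data known. Alternatives were DESeq2 1.42.0, limma-voom (limma 3.58.1), other scalings, filters and thresholds, a block, a fit of the compared groups alone, and leaving out each library. IRF5 KO LPS DMSO replicates 1 and 2, which the distances between the libraries single out, were also left out together. Leaving out 2 libraries for the other pathway genes was chosen after seeing the data.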

Additional observations from a re-analysis of the deposited data

Results flagged for a closer look

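Effects under one contrast differed between the genotypes by the test of the difference itself, the interaction term of edgeR (WT minus IRF5 KO, log2, ± SE), for 7 members with LPS and 5 with defactinib. With LPS the terms were 3.28 ± 0.84 for Tlr3, 2.83 ± 0.68 for Tlr1, 2.57 ± 0.54 for Tlr7, 2.17 ± 0.62 for Tlr6, 1.69 ± 0.44 for Tlr2, 1.47 ± 0.34 for Cd14 and 1.36 ± 0.30 for Ly96. With defactinib after LPS they were -3.94 ± 0.45 for Tlr2, -2.92 ± 0.65 for Tlr6, -2.64 ± 0.87 for Tlr3, -2.60 ± 0.34 for Cd14 and -2.45 ± 0.54 for Tlr7. Both sets use the IRF5 KO LPS DMSO libraries, of which replicate 3 stood apart, and share the WT LPS DMSO libraries. Without that replicate 3, all 10 members were called in both interactions, where 16.5% of all tested genes had a positive term with LPS and 18.8% a negative term with defactinib. With replicate 3 as the lone library of its group, 3 members were called with LPS, against 2.55%, and 4 with defactinib, against 9.22%. Tlr3, Tlr6 and Tlr7 kept their call and sign with LPS in both fits, and Tlr2, Tlr6, Tlr7 and Cd14 with defactinib.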

How the results depend on the processing

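Over 110 combinations of member and comparison, calls changed in 0 with DESeq2's size factors, 5 with DESeq2, 7 with limma-voom, 8 with library size alone and 25 without IRF5 KO LPS DMSO replicate 3. They also changed in 25 with the fold change threshold inside the test, 12 with only the groups compared and 8 without a filter on low counts. With library size alone the median log2 fold change of all genes was -0.38 for LPS in WT and 0.45 for the interaction with defactinib, against -0.00454 and 0.12 with TMM. It changed the sign of no called member. With the replicate number as a block, members called were 5 for LPS in WT, 5 for LPS in IRF5 KO, 6 for genotype after LPS, 4 for genotype after defactinib and 6 for the interaction with defactinib, and as without it in the others. With the fold change threshold inside the test, the counts were 2 for LPS in WT, 6 for defactinib in WT (without Tlr1, Tlr4 and Tlr13), 0 for LPS in IRF5 KO, 3 for LPS with defactinib in IRF5 KO, 3 for genotype after LPS, 1 for genotype after defactinib and 0 for the interaction with LPS. Without a filter they were 7 for defactinib in WT (without Tlr1 and Tlr4), 2 for LPS in IRF5 KO and 4 for the interaction with LPS. With only the groups compared they were 0 for LPS in IRF5 KO and 2 for unstimulated genotype, which was 2 with no fold change threshold. In the fits of only the groups compared, Tlr4 and Tlr9 gained a call for LPS in WT. Tlr3 gained one for LPS with defactinib in IRF5 KO and Tlr6 for genotype after defactinib. Tlr6 lost its call for genotype after LPS and for the interaction with LPS, and Tlr3 for that with defactinib. For defactinib in IRF5 KO the count of 0 became 1 with library size alone, 1 with a filter of 5 CPM in 3 libraries, 2 with DESeq2 and 1 with limma-voom. With IRF5 KO LPS DMSO replicates 1 and 2 left out together, counts were 1 for LPS in IRF5 KO, 6 for defactinib in IRF5 KO, 2 for unstimulated genotype, 5 for genotype after defactinib and 3 for the interaction with LPS. Leaving out each library in turn gave 7 to 10 for defactinib in WT, 1 to 8 for LPS in IRF5 KO, 0 to 2 for defactinib in IRF5 KO, 1 to 2 for unstimulated genotype, 5 to 8 for genotype after LPS, 3 to 5 for genotype after defactinib, 6 to 10 for the interaction with LPS and 4 to 10 for that with defactinib. It gave 5 to 7 for LPS in WT, 5 to 7 for LPS with defactinib in IRF5 KO and 5 for LPS with defactinib in WT. Tlr13 with defactinib in IRF5 KO, -0.06 as reported, ran from -0.41 to 1.00 over these, the positive value without LPS DMSO replicate 3, where Tlr1, Tlr3, Tlr4 and Tlr6 also turned positive, at 0.37, 1.15, 0.86 and 0.75, uncalled. Deviations of same-numbered libraries from their group means had a median r of 0.00455 over 45 pairs, 4 of them above 0.1. Whether libraries of the same number share more than the number was not tested. Where no value shows a cause, the cause was not tested.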
